A study of Rattus norvegicus with 7 samples.

Results

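RNA sequencing of the rat meibomian gland was used here to describe 9 genes of steroid hormone action: 4 receptors (Nr3c1, Nr3c2, Esr1 and Pgr), 3 enzymes that make or release active steroids locally (Hsd11b1, Srd5a1 and Sts) and 2 transcripts that glucocorticoids induce (Fkbp5 and Tsc22d3). They were chosen by symbol, all 9 were found among the 17246 genes of the tables, and all 9 passed the filter on low counts that left 13709 genes tested. The series asked which transcripts of the gland differ between irradiated and non-irradiated rats. Both groups were wild-type female Sprague-Dawley rats aged 3 months. The control group (4 libraries) is labelled as receiving no treatment, and the UVB group (3 libraries) had the upper eyelids shaved and irradiated with ultraviolet B light at 300 mJ/cm2, in sessions of 5 min on each of 5 days, before the lids were taken and the glands dissected and frozen. The labels attach that protocol text to every sample and leave unstated whether control lids were shaved and how long after the last session the tissue was taken. They number the samples within each group without saying that each came from its own animal, so p-values measure only the spread between these libraries.

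The meibomian gland is a holocrine gland of the eyelid whose cells fill with lipid and burst to supply the oily layer of the tear film. Steroids act on it through nuclear receptors that bind hormone, enter the nucleus and switch target genes on or off, and androgens are known to favour its lipid production while their lack is linked to dry eye. Active hormone can also be made on site. The enzyme 5α-reductase turns testosterone into the stronger dihydrotestosterone, and steroid sulfatase frees steroids from their sulfates. The 11β-hydroxysteroid dehydrogenases interconvert active and inert glucocorticoids.

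The 7 libraries held between 20680237 and 28784941 expected counts, the estimated reads per gene. Because the columns carry a group but no replicate number, the libraries carry letters here, control a, b, c and d and UVB a, b and c, with no pairing between groups. Gland identity was checked with 12 meibocyte genes, whose summed abundance in TPM (transcript abundance corrected for length and scaled to a fixed library total) ranged from 47602 to 57406 in controls and from 43583 to 50569 after UVB. Awat2, the wax synthase that marks the gland, was at 9122 ± 523 CPM in controls and 5782 ± 285 CPM after UVB (SD, n = 4 and 3; edgeR adjusted p = 0.00453). CPM are counts scaled to a common library total with TMM factors. Awat2 does not stand for the whole list. Over the 12 meibocyte genes the estimated changes were split, 5 above 0 and 7 below, with a median log2 fold change of -0.086. Values given with ± are means and standard deviations over the 4 control or the 3 UVB libraries.

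Of the 9 genes, Srd5a1 rose after UVB and Nr3c1 fell, and the other 7 did not pass an adjusted p of 0.05 in edgeR's quasi-likelihood test. The share of all tested genes called in either direction was 13.0%, so a count of 2 in 9 is not far from the background. For higher values the background was 6.3%, and for lower values 6.74%. The median log2 fold change of the 9 genes was -0.25, beside -0.0058 over all tested genes, with 7 of the 9 estimates below 0. In 2 of the 9, again Srd5a1 and Nr3c1, no UVB library overlapped a control, against 26.6% of all tested genes. In bulk tissue, fewer cells of a type and less RNA per cell cannot be told apart, which holds for every change given here.

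**Figure D1:**
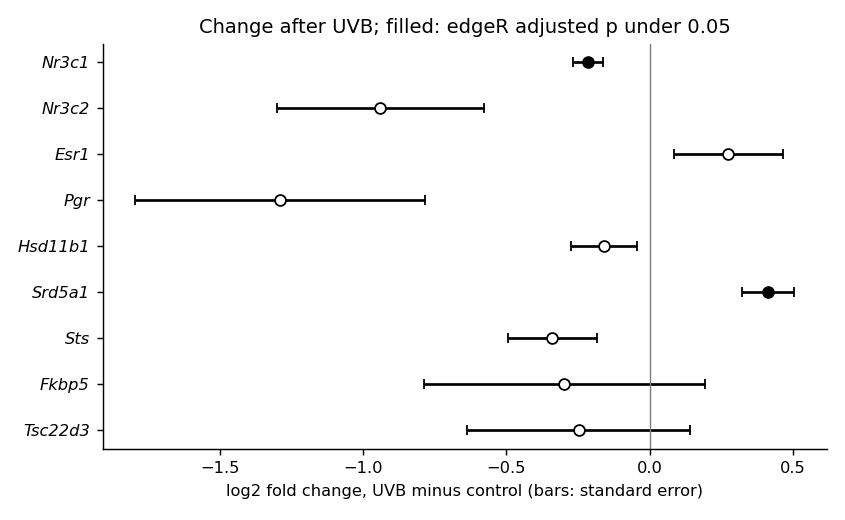
Fitted log2 fold change (UVB minus control) of the 9 genes on the horizontal axis, with bars of 1 standard error and filled circles for an adjusted p under 0.05. Srd5a1 at 0.41 and Nr3c1 at -0.22 are filled and have short bars, while Pgr at -1.29 and Nr3c2 at -0.94 lie farther from 0 with bars several times as long.

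Per unit length the transcripts spanned a wide range. Hsd11b1 was by far the highest, at 1167 ± 101 TPM in controls, and Srd5a1 followed at 156 ± 9.46 TPM. By mean TPM over all 7 libraries, Hsd11b1 lay above 99.2% of tested genes and Srd5a1 above 94.4%. These 2 enzymes and the next gene, Tsc22d3 at 59.3 ± 28.5 TPM, kept this order in 7 of 7 libraries with no overlap of their ranges. Fkbp5 at 29.8 ± 16.0 TPM and Nr3c1 at 29.1 ± 1.22 TPM did not differ beyond their spread, with Fkbp5 the higher in only 2 of 7 libraries. Nr3c2 lay below Nr3c1 in all 7 libraries, at 16.2 ± 7.1 TPM, although their ranges overlapped. The lowest levels belonged to Sts at 5.74 ± 0.394 TPM, Pgr at 4.12 ± 1.07 TPM and Esr1 at 2.90 ± 0.578 TPM, each also below Nr3c2 in every library. Esr1 exceeded Pgr in 3 of 7 libraries, so these receptors had no fixed order. By the mean over all 7 libraries, only 20.8% of tested genes lay below Esr1 and 20.6% below Pgr. That mean includes the UVB libraries, where Esr1 was at 3.47 ± 0.401 TPM and Pgr at 1.69 ± 1.28 TPM. Both sex steroid receptors were thus low in the detected range, while the glucocorticoid-activating enzyme stood far above the other 8 genes.

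Nr3c1 encodes the glucocorticoid receptor, which binds cortisol or, in rats, corticosterone. Its level in control a, b, c and d was 113, 112, 119 and 116 CPM, and in UVB a, b and c it was 99.6, 100 and 98.2 CPM. Every UVB library lay below every control, and the libraries of each group were close together. The mean of 115 ± 3.19 CPM in controls became 99.3 ± 0.979 CPM, a fall by 13.9% (log2 fold change -0.22, SE 0.052, adjusted p = 0.0277). Small as it is, the direction held in all 21 alternative analyses, between -0.23 and -0.19. The call did not hold in the 3 fits on TPM (adjusted p from 0.0563 to 0.0584), and it was lost on leaving out any single library other than control a, with adjusted p of 0.0513 without control b, 0.0808 without c, 0.079 without d, and 0.0635, 0.0665 and 0.0779 without UVB a, b and c. Without both libraries c it was 0.183.

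Nr3c2 encodes the mineralocorticoid receptor, which binds aldosterone and also glucocorticoids with high affinity. In the 4 controls it was at 94.1, 40.3, 60.3 and 38.5 CPM, and in the 3 UVB libraries at 25.4, 42.2 and 23.5 CPM. Control a was the highest of all 7, UVB a and c lay below every control, and UVB b fell among the controls. The means were 58.3 ± 25.8 and 30.3 ± 10.3 CPM, and the log2 fold change of -0.94 (SE 0.36) did not pass the test, with an adjusted p of 0.134. Annotated genes of the RefSeq assembly GRCr8 overlap Nr3c2, Esr1, Srd5a1 and Fkbp5, and how strand was handled in counting is not given in the sources used here, so some of their reads could come from those neighbours.

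The ratio of the 2 corticosteroid receptors was also taken within each library, where it is free of library scaling. Nr3c1 exceeded Nr3c2 by 1.09, 2.52, 1.79 and 2.75 times in TPM in the controls a, b, c and d, and by 3.55, 2.16 and 3.81 times in the 3 UVB libraries. UVB a and c had the highest ratios and UVB b lay among the controls. The mean log2 ratio was 0.94 ± 0.61 in controls and 1.62 ± 0.45 after UVB, a difference of 0.68 that did not stand out from the spread between libraries (exact permutation of the group labels, two-sided, 35 arrangements, p = 0.171, also 0.171 when adjusted over the 2 ratios tested).

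Esr1, the estrogen receptor alpha gene, was low throughout. Its counts ranged from 57 to 124 per library, which gave 2.66, 3.45, 3.55 and 4.19 CPM in controls and 3.93, 4.80 and 3.85 CPM after UVB. UVB b was the highest of the 7 and the other UVB libraries lay within the control range. The difference (log2 fold change 0.28, SE 0.19) did not pass the test, with an adjusted p of 0.369.

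Pgr encodes the progesterone receptor, itself a classical estrogen target in reproductive tissue. Controls had 5.37, 8.91, 10 and 9.53 CPM, and UVB libraries 3.08, 1.05 and 6.24 CPM. UVB a and b were below every control, whereas UVB c lay above control a. Its mean was 8.46 ± 2.11 CPM in controls and 3.46 ± 2.62 CPM after UVB, a fitted ratio of 0.409 (log2 fold change -1.29, SE 0.50) with an adjusted p of 0.135. The lowest library, UVB b, held 27 counts, and the estimate ran from -2.07 to -0.85 over the alternatives. Leaving out UVB c brought the gene past the threshold (log2 fold change -2.07, adjusted p = 0.0289), but without both libraries c it was not called (log2 fold change -1.97, adjusted p = 0.0675).

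**Figure D2:**
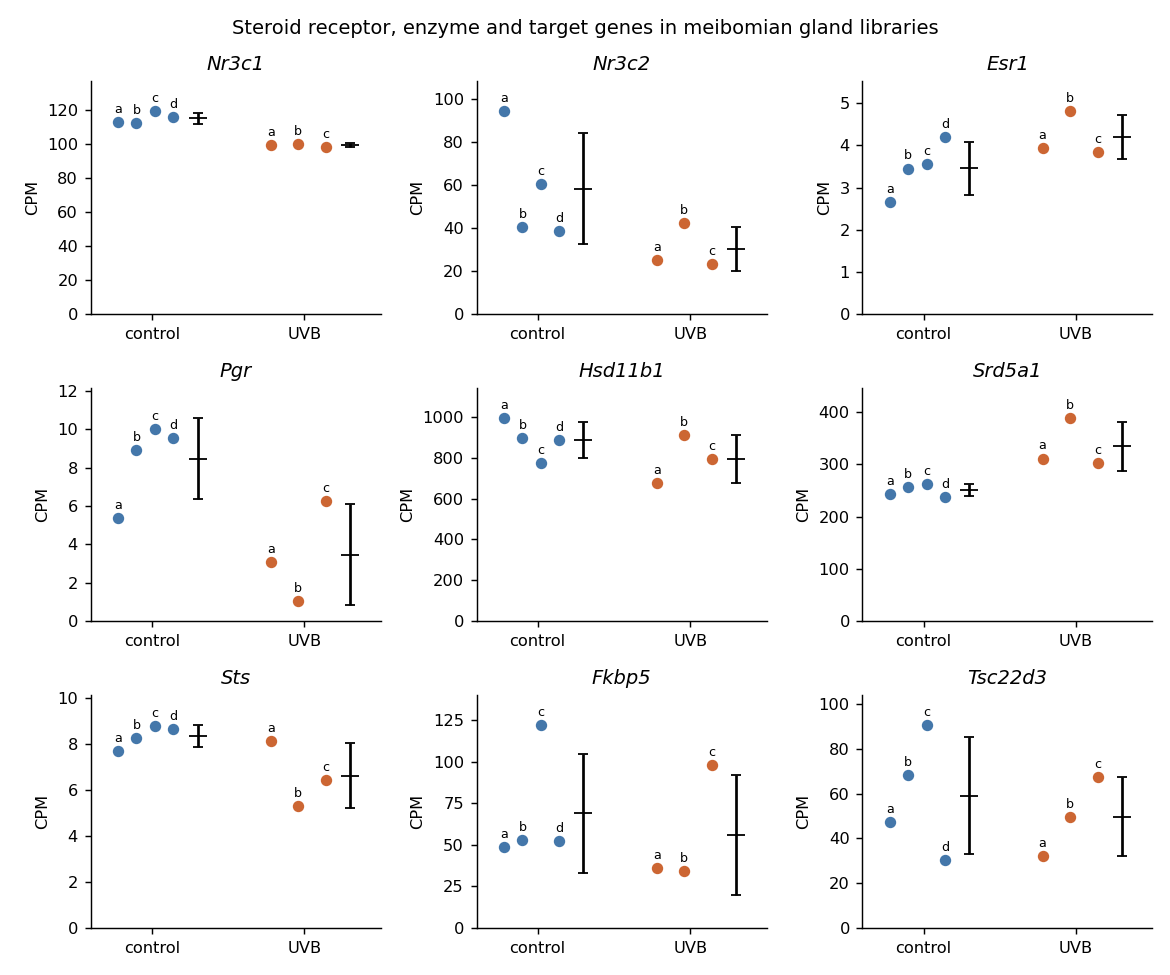
Level of each of the 9 genes (CPM, linear axes from 0) in control libraries a to d (blue) and UVB libraries a to c (orange), with the group mean and 1 SD in black beside them. Nr3c1 and Srd5a1 show separated groups, while Nr3c2, Pgr, Fkbp5 and Tsc22d3 spread widely within a group, Fkbp5 reaching 122 CPM in control c and 97.7 CPM in UVB c.

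A list of 11 further steroid receptors and related orphan receptors had 8 tested members and a median log2 fold change of 0.0085. Of these estimates 4 lay above 0 and 4 below. edgeR called 0 of the 8, beside 13.0% of all tested genes, and DESeq2 and limma-voom also called 0. With a mean count of at least 50, edgeR called 1 as lower, and without control a also 1. That lower call was not Paqr7, and the receptor is not named here. In the main fit 2 of the 8 had an unadjusted p under 0.05. One of these 2 was the membrane progestin receptor Paqr7, named after its values were seen. Paqr7 had means of 10.2 CPM in controls and 12.5 CPM after UVB (adjusted p = 0.123).

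Srd5a1 encodes steroid 5α-reductase of type 1, the enzyme of skin and its glands that makes dihydrotestosterone. Because it had the larger of the 2 called changes, the 250 bases before its start site are shown, from RefSeq on GRCr8 at chr1:35514664-35514913, plus strand, 5′ to 3′, with GC boxes (GGGCGG on either strand) and CCAAT boxes (CCAAT on either strand) in capitals.
Srd5a1: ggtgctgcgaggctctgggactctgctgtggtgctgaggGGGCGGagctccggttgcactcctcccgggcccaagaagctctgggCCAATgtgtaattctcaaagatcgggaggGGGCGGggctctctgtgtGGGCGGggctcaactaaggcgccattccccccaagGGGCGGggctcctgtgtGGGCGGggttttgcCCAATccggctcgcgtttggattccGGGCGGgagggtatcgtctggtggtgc
This stretch holds 6 GC boxes and 2 CCAAT boxes. As many GC boxes occur in 0.825% of the 33469 rat promoters of the same length, while at least 1 GC box occurs in 30.5% and at least 1 CCAAT box in 34.0%. Such a match describes letters only, not binding.

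In the controls Srd5a1 was at 244, 257, 263 and 237 CPM, and in the UVB libraries at 311, 388 and 303 CPM. All 3 UVB libraries were above all 4 controls, with UVB b the farthest. The mean rose from 251 ± 11.8 to 334 ± 47.2 CPM, or by 33.3% in the fit (log2 fold change 0.41, SE 0.091, adjusted p = 0.0202). The estimate stayed between 0.30 and 0.51 over the 21 alternatives. Without control d the adjusted p was 0.0567, and without both libraries labelled c it was 0.0539. Of the 12 meibocyte markers, 1 was called higher and 3 lower over the same libraries, beside 6.3% and 6.74% of all tested genes. Their estimates were split, 5 above 0 and 7 below, with a median log2 fold change of -0.086. The part of meibocyte content in the Srd5a1 result was not tested.

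Hsd11b1 encodes 11β-hydroxysteroid dehydrogenase type 1, which regenerates active glucocorticoid from its inert keto form. It stood at 993, 895, 776 and 888 CPM in controls and 677, 912 and 795 CPM after UVB. UVB a was the lowest of the 7 and the other UVB libraries lay within the control range. The difference between the means of 888 ± 88.8 and 795 ± 118 CPM did not pass the test (log2 fold change -0.16, SE 0.11, adjusted p = 0.39). H6pd, which supplies the reduced cofactor that enzyme needs, was named after its values were seen. It had means of 48.1 ± 0.865 and 41.8 ± 3.06 CPM, with no overlap between groups and an adjusted p of 0.0765.

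The opposite reaction, inactivation of glucocorticoid, is carried out by the product of Hsd11b2, which in kidney and other sodium-transporting epithelia shields the mineralocorticoid receptor. Hsd11b2 was at 3.22, 5.09, 5.38 and 3.72 CPM in controls and at 1.66, 1.08 and 1.35 CPM after UVB. Every UVB library was below every control, with 28 to 35 counts in UVB libraries against 69 to 156 in controls. The log2 fold change was -1.68 (SE 0.26, adjusted p = 0.00598), and it passed in all 21 alternatives. Within libraries, Hsd11b1 exceeded Hsd11b2 by 436, 249.6, 204 and 338 times in TPM in the 4 controls, and by 579, 1195 and 836 times in the 3 UVB libraries. All UVB ratios lay above all control ratios. The mean log2 ratio went from 8.20 ± 0.48 to 9.70 ± 0.52, a difference of 1.5 or 2.83-fold, and the exact two-sided permutation p of 0.0286 is the smallest that 35 arrangements of the labels allow. Adjusted over the 2 ratios it was 0.0572. Hsd11b1 did not pass its own test, and the ratio rests on the same Hsd11b2 values as that gene's test.

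**Figure D3:**
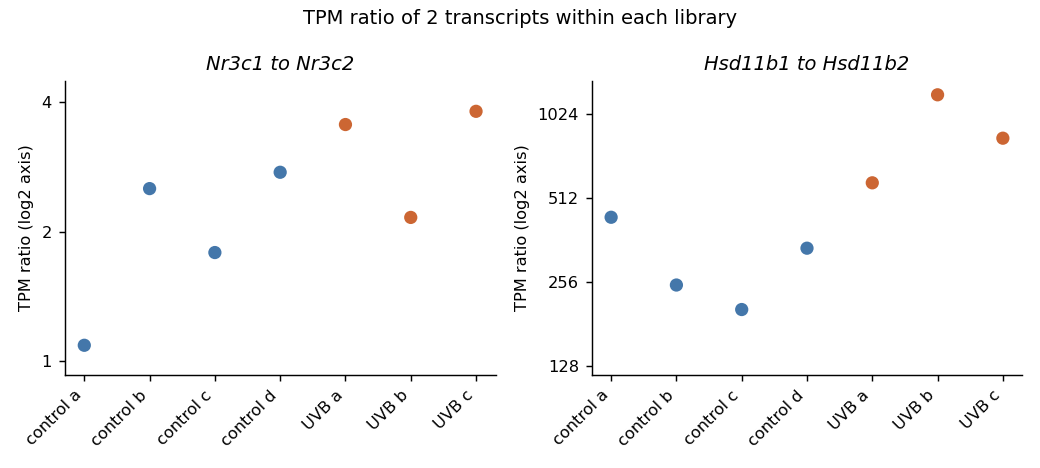
TPM ratio of Nr3c1 to Nr3c2 (left) and of Hsd11b1 to Hsd11b2 (right) in each library, on log2 axes, with controls in blue and UVB libraries in orange. On the right every UVB library, from 579 to 1195, lies above every control, from 204 to 436; on the left UVB b, at 2.16, lies among the controls.

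Sts encodes steroid sulfatase, which releases estrone, dehydroepiandrosterone and cholesterol from their sulfates. Controls had 7.70, 8.26, 8.76 and 8.63 CPM, close together, and UVB libraries 8.11, 5.30 and 6.43 CPM. UVB b and c were below every control and UVB a among them. The log2 fold change of -0.34 (SE 0.16) had an adjusted p of 0.18. Sumf1, whose product activates all sulfatases, fell from 67.8 ± 4.22 to 56.3 ± 2.77 CPM (log2 fold change -0.27, adjusted p = 0.0341). That call was lost on leaving out any 1 library other than control d, at adjusted p from 0.0515 to 0.105, and in the 3 fits on TPM, at 0.0572 to 0.0687.

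Sumf1 and Hsd11b2 belong to a list of 48 steroid synthesis and conversion enzymes, 31 of them tested. Against the 13.0% of all genes, 3 of the 31 were called, all lower, and the list's median log2 fold change was 0.06. The third was Hsd17b8, an oxidising 17β-hydroxysteroid dehydrogenase that inactivates estradiol, which fell from 85.8 ± 3.80 to 68.3 ± 5.73 CPM (log2 fold change -0.33, adjusted p = 0.0198). Its adjusted p was 0.0528 without control d, 0.0569 without UVB a and 0.0556 without UVB c, and some of its counts were fractional, so reads may have been shared with other features. In TPM its fall was smaller, from 37.3 ± 0.853 to 33.7 ± 1.04, and did not pass (adjusted p from 0.1 to 0.115).

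Fkbp5 and Tsc22d3 are the classical readouts of glucocorticoid receptor activity. Fkbp5 encodes a co-chaperone that lowers the hormone affinity of the receptor, and Tsc22d3 encodes the glucocorticoid-induced leucine zipper protein, GILZ. Because they were high in the same libraries, the 250 bases before one start site of each are shown from RefSeq on GRCr8, 5′ to 3′ on the gene's strand, with GC, CCAAT and TATA boxes (TATAAA) in capitals. Fkbp5 has 1 entry, at chr20:6543556-6543805 on the minus strand, and Tsc22d3 has 3, of which the third, at chrX:109010035-109010284 on the minus strand, is given.
Fkbp5: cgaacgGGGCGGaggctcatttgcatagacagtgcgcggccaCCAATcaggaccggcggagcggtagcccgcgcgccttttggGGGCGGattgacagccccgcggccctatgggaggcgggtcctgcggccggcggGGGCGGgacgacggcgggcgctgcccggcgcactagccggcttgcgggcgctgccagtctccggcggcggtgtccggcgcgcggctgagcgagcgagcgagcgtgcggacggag
Tsc22d3: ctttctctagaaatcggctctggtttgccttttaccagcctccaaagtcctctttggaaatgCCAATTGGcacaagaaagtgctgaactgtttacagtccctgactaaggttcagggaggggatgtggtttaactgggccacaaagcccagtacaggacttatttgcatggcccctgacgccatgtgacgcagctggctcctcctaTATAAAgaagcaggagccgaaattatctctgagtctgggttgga
The Fkbp5 stretch holds 3 GC boxes, as many as 7.41% of promoters have, and 1 CCAAT box. That of Tsc22d3 holds a TATA box, found in 12.9% of promoters, and 2 CCAAT boxes on opposite strands that share letters. The first and second Tsc22d3 entries, not shown, hold no TATA or CCAAT box, but 1 and 3 GC boxes. The full glucocorticoid response element (AGAACA, any 3 bases, then its reverse complement TGTTCT) was found in none of the 10 entries of the 7 genes that have one, and in 0.012% of all promoters. The half-site AGAACA was also absent from them and occurs in 17.5% of promoters. These letters are not in these windows, which says nothing about sites elsewhere. Hsd11b1 and Nr3c2 had no entry.

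The levels of Fkbp5 were 48.4, 52.9, 122 and 52.0 CPM in controls and 36.3, 34.3 and 97.7 CPM after UVB. Control c and UVB c stood far above the rest, and UVB a and b were below every control. The means of 68.9 ± 35.6 and 56.1 ± 36.1 CPM differed by less than the spread (log2 fold change -0.30, SE 0.49, adjusted p = 0.734). The value rested on those 2 libraries: without control c the log2 fold change was 0.14 (adjusted p = 0.877), without UVB c it was -0.97 (adjusted p = 0.166), and without both, an alternative added after the values were seen, it was -0.53 with an adjusted p of 0.024.

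Tsc22d3 was at 47.1, 68.1, 90.6 and 30.2 CPM in controls and at 32.1, 49.4 and 67.5 CPM after UVB. Control c was again the highest of the controls and UVB c the highest of the UVB libraries, and the UVB values lay within the control range. The log2 fold change was -0.25 (SE 0.39, adjusted p = 0.719), and 0.038 without control c.

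Other glucocorticoid-induced genes, named after their values were seen, were high in the same libraries. Per1, a circadian repressor, was at 55.2, 77.1, 99.4 and 34.3 CPM in controls and 31.7, 48.5 and 56.8 CPM in UVB libraries. Zbtb16, a zinc finger repressor, was at 2.05, 8.59, 16.7 and 2.56 CPM against 2.56, 4.76 and 11 CPM. Klf9, a Krüppel-like factor, was at 21.4, 29.9, 37.2 and 22.8 CPM against 22.8, 27.7 and 34.1 CPM. In each of these, as in Fkbp5 and Tsc22d3, control c topped the controls and UVB c the UVB libraries. Their log2 fold changes of -0.54, -0.30 and 0.02 did not pass the test, at adjusted p of 0.362, 0.837 and 0.966. Nr3c1 itself, within its narrow range, was highest in control c but lowest of all 7 in UVB c.

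**Figure D4:**
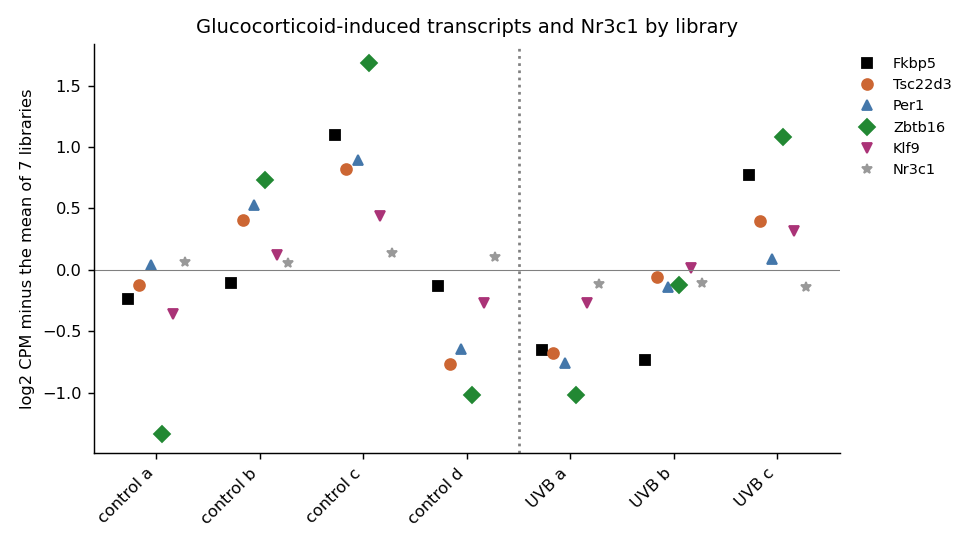
Log2 CPM of 5 glucocorticoid-induced genes and of Nr3c1 in each library, minus the gene's mean over the 7 libraries; symbols are offset sideways for legibility. All 5 induced genes are highest within their group in control c and in UVB c, whereas Nr3c1 (stars) stays near 0 in every library. Per1, Zbtb16 and Klf9 were named after their values were seen. In the list of glucocorticoid targets, 9 of the 26 tested genes had both libraries c highest.

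Of the 9 genes described, Fkbp5, Tsc22d3 and Pgr had both libraries c at the top of their groups, a pattern seen in 6.08% of all tested genes. In a list of 31 glucocorticoid target genes, 9 of the 26 tested had it. Control c was the most deeply sequenced of all, with 28784941 counts, but UVB c, with 25618503, was less deep than UVB b, with 26651170. Of 7 tested adipocyte markers 5 showed the same pattern. The adipokine Adipoq was at 12.6 CPM in control c and between 2.56 and 7.19 CPM in the other controls, and at 3.04 CPM in UVB c against 1.52 and 2.63 CPM in UVB a and b. Summed over the adipocyte list, abundance ranged from 134 to 205 TPM in controls and from 148 to 176 TPM after UVB. The part of depth and of fat tissue in the levels of these genes was not tested.

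Among those 26 tested glucocorticoid targets, 2 were called higher and 5 lower after UVB, beside 6.3% and 6.74% of all tested genes, with a median log2 fold change of -0.14. Cdkn1c, a cell cycle inhibitor, rose from 7.82 ± 1.08 to 17.6 ± 2.52 CPM (adjusted p = 0.003), and the metallothionein Mt2A rose from 30.1 ± 5.44 to 50.5 ± 0.51 CPM (adjusted p = 0.00823). The kinase Sgk1 fell from 106 ± 10.7 to 71.4 ± 6.14 CPM (adjusted p = 0.00678) and the transglutaminase Tgm2 from 172 ± 15.8 to 114 ± 15.0 CPM (adjusted p = 0.00786). The remaining 3 that fell were named after their values were seen. Tfcp2l1, an epithelial transcription factor, had a log2 fold change of -1.17 (adjusted p = 0.0115), the phagocytic receptor Mertk -0.46 (adjusted p = 0.0213) and the kinase Pdk4 -0.42 (adjusted p = 0.0307). Mertk lost its call without control c (adjusted p = 0.0606), UVB a (0.0639) or UVB b (0.0723), and Pdk4 without control c (0.0783), control d (0.0819), UVB a (0.09) or UVB c (0.0976). Called genes of the list thus lay on both sides of 0, and Fkbp5 and Tsc22d3 were not among the called.

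Mineralocorticoid receptor signalling raises epithelial sodium uptake through Sgk1, the epithelial sodium channel and the sodium pump. Of 10 such genes 9 were tested, and 5 passed (13.0% of all genes did), 1 higher and 4 lower, with a median log2 fold change of -0.38. Sgk1, counted in the glucocorticoid list too, was one of the 4 that fell. Prss8, the protease prostasin that activates the channel, fell from 104 ± 4.18 to 79.2 ± 2.61 CPM (adjusted p = 0.00584). Atp1b1, the beta subunit of the sodium pump, fell from 199 ± 24.4 to 101 ± 25.3 CPM (adjusted p = 0.0124). Nedd4l, which marks the channel for removal and was named after its values were seen, had a log2 fold change of -0.45 (adjusted p = 0.0368). Its call was lost with library size alone as scaling (adjusted p = 0.0543), in the 3 fits on TPM (0.0514 to 0.0753) and when any of the libraries control b, c and d or UVB b and c was omitted (adjusted p from 0.0814 to 0.0982). Prss8 and Atp1b1 had fractional counts and overlap Kat8 and Nme7 in the annotation, so their reads could be split. The channel subunits Scnn1a, Scnn1b and Scnn1g did not pass, with log2 fold changes of -0.18, -0.17 and -0.38.

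Steroid receptors need chaperones to bind hormone and coregulators to act on chromatin. In that list 4 of 21 tested genes passed, 2 in each direction, beside 13.0% of all tested genes, with a median log2 fold change of 0.019. The Hsp40 co-chaperones Dnaja1 and Dnajb1 rose, from 66.9 ± 2.44 to 86.1 ± 1.06 CPM (adjusted p = 0.00598) and from 70.4 ± 3.92 to 85.0 ± 4.84 CPM (adjusted p = 0.0299). The p160 coactivators Ncoa1 and Ncoa2 fell, from 138 ± 2.06 to 113 ± 7.02 CPM (adjusted p = 0.0155) and from 78.0 ± 2.07 to 62.3 ± 3.25 CPM (adjusted p = 0.0106). Some counts of Ncoa2 were fractional, so its reads may have been shared with other features. For Dnajb1 the call was lost when any of the libraries control b, c and d or UVB a and b was omitted (adjusted p from 0.0673 to 0.0857).

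Sex steroid targets were counted in separate lists, to be read against the 13.0% of all tested genes called in either direction. Of 15 tested estrogen and progesterone targets, 1 passed, the growth factor Igf1, which rose from 13.0 ± 1.92 to 25.4 ± 5.54 CPM (adjusted p = 0.00924). The list's median log2 fold change was -0.031. Of 14 tested androgen targets, 2 passed, both higher, and the median was -0.0036. These were the metalloreductase Steap4, at 16.2 ± 0.659 CPM in controls and 27.2 ± 1.92 CPM after UVB (adjusted p = 0.00187), and the fatty acid elongase Elovl5, at 365 ± 54.3 and 601 ± 86.1 CPM (adjusted p = 0.0105). Over all 7 lists, 21 of 122 distinct tested genes were called, not far from that background share.

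**Figure D5:**
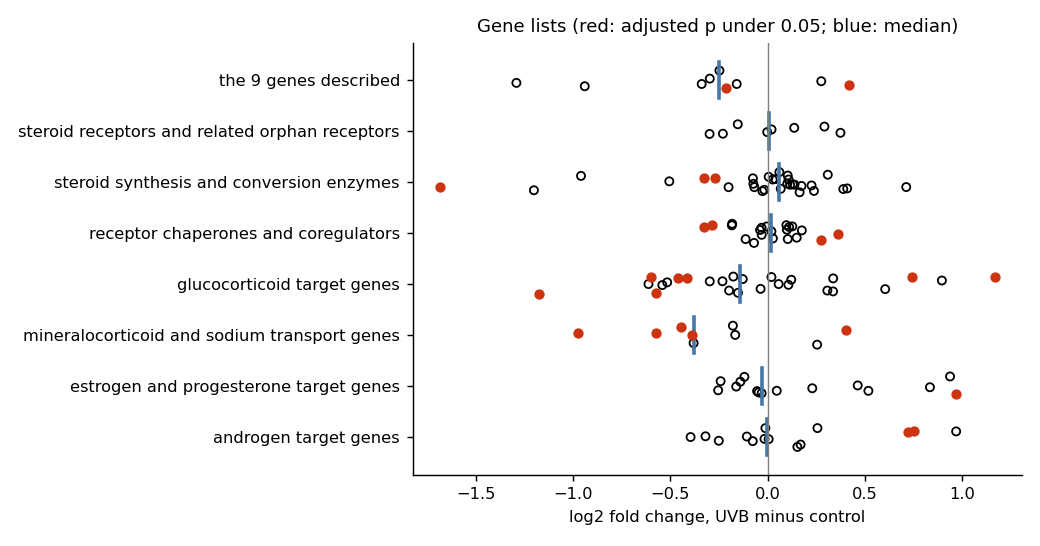
Log2 fold change (UVB minus control) of each tested gene in the 9 genes described and in the 7 related lists, with red points for an adjusted p under 0.05 and a blue bar at the list's median. Medians lie between -0.38, for mineralocorticoid and sodium transport genes, and 0.06, for synthesis and conversion enzymes, and most lists hold red points on 1 or both sides of 0.

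For the 2 called genes, the nearest patterns among 11314 genes were sought by Pearson's r of log2 CPM over the 7 libraries, as a description only, since any 2 genes that separate the groups share part of their pattern. Nearest to Nr3c1 were Nupr1, a stress-response regulator (r = 0.997, log2 fold change -1.52), and Impa2, an inositol monophosphatase (r = 0.995, log2 fold change -0.45). Nearest to Srd5a1 were Bsg, the membrane protein basigin (r = 0.996), and Eloc, elongin C (r = 0.986). Neither of the last 2 passed the test itself, with log2 fold changes of 0.14 and 0.18.

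Markers of other cell types also differed between the groups, and their counts stand beside a background of 6.3% of all tested genes called higher and 6.74% called lower. Fibroblast markers had 5 called higher and 1 lower of 10 tested, and their summed abundance ranged from 1066 to 1618 TPM in controls and from 1364 to 2151 TPM after UVB. Lum, a collagen-binding proteoglycan of stroma, rose from 28.3 ± 4.03 to 109 ± 33.3 CPM (adjusted p = 0.00348). Macrophage markers had 3 of 9 called higher, with sums of 166 to 483 TPM in controls and 183 to 311 TPM after UVB. Of the 9 estimates 6 lay above 0 and 3 below, with a median log2 fold change of 0.58. The scavenger receptor Cd163 rose from 2.57 ± 0.966 to 29.6 ± 12.9 CPM (adjusted p = 0.00402). Mast cell, endothelial, neutrophil and basal keratinocyte markers had 3 of 7, 3 of 7, 2 of 3 and 3 of 7 called higher. T cell, smooth muscle and skeletal muscle markers had 2 of 5, 2 of 6 and 1 of 7 called higher, and the few tested lacrimal and goblet markers 2 of 3. Of the 7 skeletal muscle estimates, however, 6 lay below 0, with a median log2 fold change of -0.27. Their summed abundance ranged from 2238 to 3106 TPM in controls and from 1598 to 2817 TPM after UVB. Medians for basal keratinocyte and smooth muscle markers were also slightly below 0, at -0.021 and -0.037. Schwann cell, melanocyte and suprabasal epidermal markers had 2 of 6, 3 of 5 and 2 of 8 called lower. The part of cell mixture in the levels of the 9 genes was not tested.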

How the data were processed

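RNA was extracted from dissected meibomian glands with a column kit and DNase, and libraries followed standard Illumina protocols, per the labels' protocols. The submitters' processing notes name FastQC, Trimmomatic, DRAGEN and Picard and the build rn7; roles, annotation and strand handling are not given in the sources used here. The authors deposited expected counts per gene, of which 12.5% were not whole, and a table of TPM values, scaled by the authors for length and library (the genes used make up 82.0% to 84.1% of that scale). Unquoted commas had moved cells in 2281 rows, so each row's last 7 cells were taken as its values, and 5 rows without 7 values were left out.

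Expected counts were rounded and fitted for all genes in edgeR 4.0.16 (R 4.3.3) with TMM factors, filterByExpr, the robust quasi-likelihood test and Benjamini-Hochberg adjustment over 13709 genes, at a threshold of 0.05. The test had been laid down for raw counts and was kept with rounding. The 21 alternatives used DESeq2 1.42.0, limma-voom and limma on log2(TPM + 1) or log2(TPM + 0.1) (limma 3.58.1), and other scalings and filters. They also used unrounded counts, a fit without robust estimation, a threshold of 0.01 on the main fit, and fits without each library. The fit without both libraries c, counted among the 21, was added after the values were seen. Code was tested on simulated data. The members of all lists and the tests were chosen with earlier results of these data known. Named genes are the 9, the called genes of each list up to the 4 with the smallest p, the 2 nearest patterns of each called gene, marker genes, and 8 genes named after their values were seen, besides those noted in the text; some genes of the lists are not reported here. Of 283 listed symbols, 35 were not matched by that name. Among them Trp63 was analysed as Tp63, and the rest were not analysed here. RefSeq (GRCr8) served for names, overlaps and promoter sequences, and 15678 genes matched it by gene ID. Library totals ran from 20680237 to 28784941 counts, and of the 9 genes Esr1 and Pgr had the fewest.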

Additional observations from a re-analysis of the deposited data

Results flagged for a closer look

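In the 4 controls, 35 sets of values (the named genes and the 2 ratios) were screened for a library far from the other 3 with Dixon's ratio. Chance alone flags about 1 in 20, or 1.75 here, and 5 were found. Fkbp5 was at 122 CPM in control c, with the next control at 52.9 CPM and the lowest at 48.4 CPM (ratio 0.939). H6pd was at 49.4 CPM in control c, with the others between 47.6 and 47.7 CPM (ratio 0.898). Mertk was at 60.1 CPM in control d, below 74.5 CPM in the next (ratio 0.894). Prss8 was at 97.6 CPM in control b, below 105 CPM (ratio 0.886), and Ncoa2 at 75.0 CPM in control a, below 78.8 CPM (ratio 0.856). The Fkbp5 value is the only one of these that is more than 1.5 times its nearest neighbour. UVB groups of 3 were not screened.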

How the results depend on the processing

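No paired analysis was possible because replicate numbers are missing from the column names. Of the 9 genes, 2 were called in each count-based alternative on all 7 libraries at the threshold of 0.05. In the 3 TPM fits 1 was called (Srd5a1), at a threshold of 0.01 it was 0, without both libraries c it was 1 (Fkbp5, with Nr3c1 and Srd5a1 both lost), and on leaving out 1 library it ranged from 0 to 2 (the 2 without UVB c being Pgr and Srd5a1). The total of 1787 called genes was 2400 with DESeq2 and 1803 with limma-voom, 1137 with log2(TPM + 1) and no filter, 383 at a threshold of 0.01, 487 without both libraries c, and from 851 to 1898 on leaving out 1 library. Without both libraries c, calls were also lost for Prss8 (adjusted p = 0.053), Mertk (0.0542), Tgm2 (0.06), Tfcp2l1 (0.0609), Atp1b1 (0.0745), Igf1 (0.076), Elovl5 (0.0798), Dnajb1 (0.08), Ncoa1 (0.0887), Hsd17b8 (0.0929), Nedd4l (0.198), Pdk4 (0.199) and Sumf1 (0.224). The Hsd11b1 to Hsd11b2 difference of 1.5 ranged from 1.24 to 1.76 on leaving out 1 library, and was 1.32 without both libraries c (exact permutation p = 0.1); fewer libraries cannot reach the threshold. The Nr3c1 to Nr3c2 difference ranged from 0.41 to 0.94. Signs turned, with no call, without control c for Fkbp5 (0.14; from -0.97 to 0.14 over the libraries left out), Tsc22d3 (0.038; from -0.53) and Zbtb16 (0.48; from -1.04), without UVB a for Zbtb16 (0.058), and for Klf9 without control a (-0.085), control d (-0.063) or UVB c (-0.14; up to 0.19). The cause was not tested. Depth limits Pgr (27 counts in UVB b), Esr1 (57 in control a) and Hsd11b2 (28 in UVB b).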
